A study of Sus scrofa with 30 samples.

Results

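The 10 genes described here code for the cell's defence against reactive oxygen species. They are the transcription factor NFE2L2 (NRF2) and its inhibitor KEAP1, the superoxide dismutases SOD1 and SOD2, the peroxide-removing enzymes CAT, GPX1, GPX3 and PRDX1, and the NRF2 targets HMOX1 and NQO1. They were chosen by name for their function, and every transcript that the table holds for them was used and summed per gene. This gave 23 of the 61773 transcripts in the table and 10 of its 26012 genes and assembled loci. RNA was sequenced from mammary parenchyma beneath the third left teat of multiparous Danish Landrace × Yorkshire half-sib sows. Mid-gestation (MG) was sampled on day 70 and late gestation (LG) on day 110 of pregnancy, early lactation (EL) on day 2 and peak lactation (PL) on day 10 after farrowing, and early involution (W2) on day 2 after weaning. Each stage has 6 samples, named as 6 sows. No other treatment or genotype separated the groups, and all sows were of the same cross.

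Superoxide, a by-product of respiration and of oxidases, is turned into hydrogen peroxide by the superoxide dismutases, SOD1 in the cytosol and SOD2 in mitochondria. Hydrogen peroxide is then removed by catalase (CAT) in peroxisomes, by glutathione peroxidases and by peroxiredoxins. KEAP1 holds NRF2 at a ubiquitin ligase in unstressed cells, and oxidants that modify KEAP1 let NRF2 reach the nucleus, where it switches on genes such as HMOX1 and NQO1. A lactating gland burns large amounts of fuel to make milk, and a gland after weaning takes up its residual milk and loses secretory cells.

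The deposited values are named FPKM, yet every sample sums to 997480 to 1002643, the kind of total TPM values have, so they are called units here. They are scaled for transcript length, so levels can be set side by side between genes. In every stage 3 of the 6 samples lay within a median of 1.85% of each other and their mean within 0.741% of the mean of the other 3, while counted samples of a stage differed by medians of 19.6% to 59.8%. Only the 3 clearly distinct samples per stage were counted, so n = 3 and the series has 15 counted samples. For the 10 genes, the means of the uncounted and the counted samples differed by a median of 0.494%. The study's methods describe the samples of a stage as separate sows, and p-values here measure the spread between the counted samples. The records also disagree on 2 stages: samples titled EL carry the stage name of mid-gestation and those titled MG that of early lactation. Titles were followed, as the table columns carry them. The summed milk protein genes were at 11906 to 29461 units in MG samples and at 63857 to 120785 in EL samples. A test over all 5 stages is not touched by an exchange of these names, whereas a comparison with EL would become one with MG. PL sample 2 stood apart, with 34065 transcripts above 0 against 39524 to 46114 in the other 14 samples and with 285004 units in milk protein genes against 138798 and 91237 in the other PL samples. Member results that rest on it, and the counts over other genes that it moved most, are given with and without it. Luminal epithelial markers were present in every sample, at a summed level of 770 to 1907 units.

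Differences were tested with limma on log2(value + 0.5) of gene sums, with all 5 stages in a single fit and p-values adjusted over all 26012 genes and loci in each comparison. A gene is called where its adjusted p was below 0.05. Across the 5 stages, 3 of the 10 genes were called (SOD1, CAT and NQO1), when 18.3% of all genes and loci were. No member was called between consecutive stages before peak lactation, namely in LG vs MG (0.0115% of all genes called) and in EL vs LG (0.0154%). In LG vs MG the log2 fold changes of the members ran from -0.63 (GPX1) to 0.00 (CAT) and in EL vs LG from -0.56 (SOD2) to 0.00 (GPX3). No member had an unadjusted p below 0.05 in either comparison, beside 1153 and 1609 of all 26012 genes and loci. In PL vs EL 2 members fell, SOD1 and CAT, when 4.62% of all genes were called. In W2 vs PL 4 members rose, SOD1, CAT, NQO1 and HMOX1, when 32.8% of all genes were called.

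In PL vs MG, 5 members were lower (SOD1, CAT, NQO1, KEAP1 and HMOX1), when 25.2% of all genes were called. In PL vs LG, 3 members were lower (SOD1, CAT and NQO1), when 14.7% were called. Without PL sample 2, SOD1, CAT and NQO1 were called lower and SOD2 and GPX1 higher in both comparisons. Of all genes, 20.5% were then called in PL vs MG and 12.4% in PL vs LG. No member was called in EL vs MG (0.0269% of all genes), W2 vs MG (0.0115%), W2 vs LG (0.0346%) or W2 vs EL (0.554%). At an unadjusted p below 0.05 these comparisons held 3, 1, 0 and 3 members, beside 4138, 804, 1969 and 6531 of all 26012 genes and loci. Without PL sample 2, which is in none of these 4 groups but enters the shared estimate of the spread, 2 members were called in W2 vs EL (NFE2L2 and HMOX1, both higher), when 17% of all genes were called, and none in EL vs MG, when 1.78% were. The comparisons with PL share its 3 samples.

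The background itself was shifted in PL. The median log2 fold change over all genes and loci was -0.22 in PL vs EL, -0.57 in PL vs MG, -0.45 in PL vs LG and 0.68 in W2 vs PL. Without PL sample 2 these medians were -0.027, -0.37, -0.25 and 0.48, and the share of higher genes among those called in PL vs EL went from 16.8% to 49.4%, so the shift in PL vs EL rested on that sample. Of the 8543 genes called in W2 vs PL, 92.5% were higher, and after scaling by the median ratio of genes with at least 10 units in every sample 56.7% of 3404 were. In PL vs MG 8.84% of 6562 called genes were higher as deposited and 45.8% of 2864 after that scaling. The members' changes are therefore also given relative to the median of all genes. In bulk tissue fewer cells of a type and less RNA per cell cannot be told apart.

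**Figure D1:**
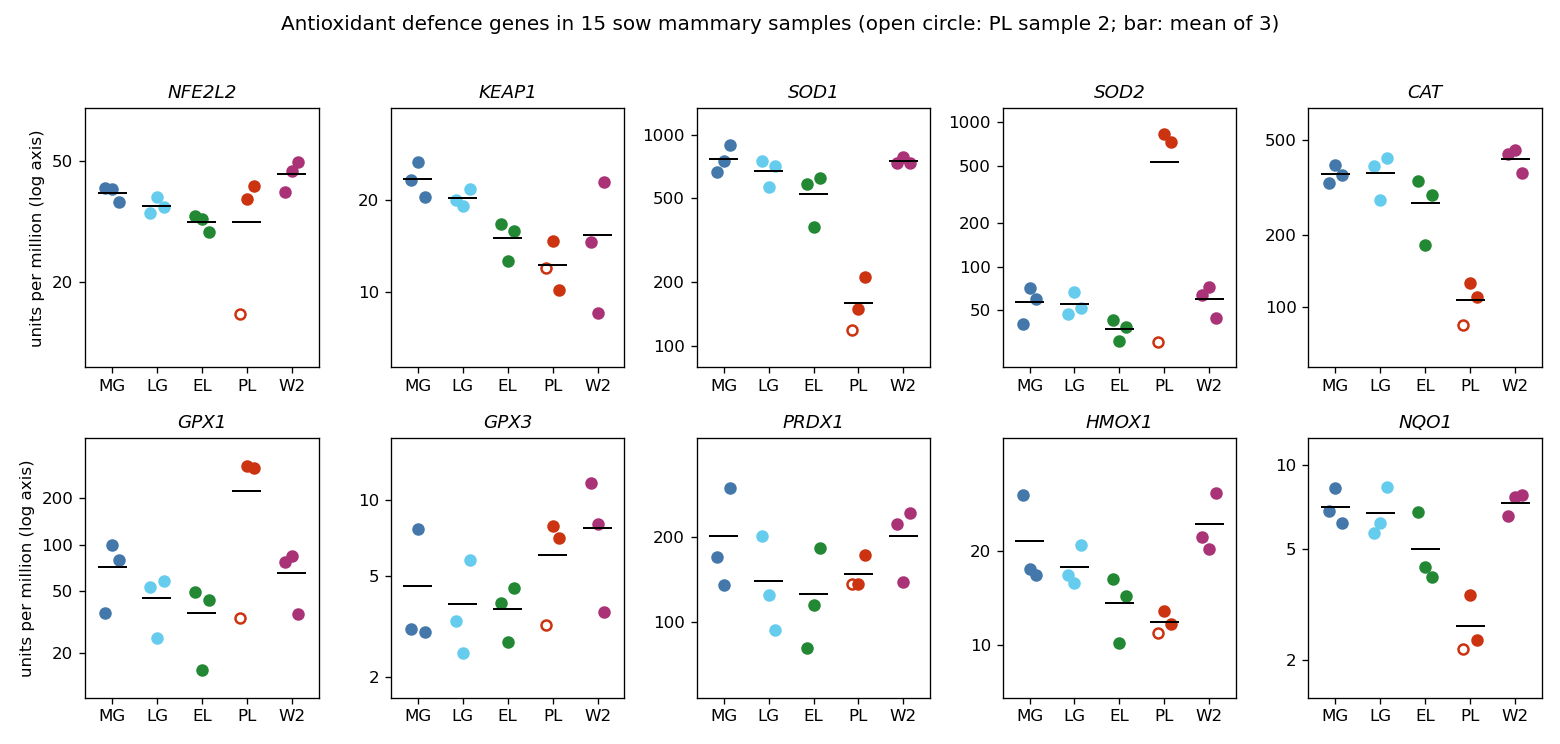
The summed level of each of the 10 genes (units, log axis) in the 3 counted samples of each stage, with a bar at the stage mean and an open circle for PL sample 2. SOD1, CAT and NQO1 were lowest in all 3 PL samples, whereas SOD2 and GPX1 were far above every other sample in PL samples 3 and 6 and not in PL sample 2.

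SOD1, the copper and zinc superoxide dismutase of the cytosol (chromosome 13, 195326573 to 195335273 in Sscrofa11.1), was the most abundant of the 10 genes in MG, LG, EL and W2. Its level was 664, 750 and 889 units in the MG samples, 746, 567 and 714 in LG, and 581, 366 and 625 in EL. In PL it was 119, 149 and 212 units, and in W2 it was 732, 787 and 736. The PL samples lay below every other sample, and the W2 samples lay within the range of MG. The mean fell from 524 ± 139 units (SD, n = 3) in EL to 160 ± 47.4 in PL and returned to 752 ± 30.5 in W2. The log2 fold change was -1.71 ± 0.23 (SE) in PL vs EL (limma, adjusted p = 0.00231) and 2.27 ± 0.23 in W2 vs PL (limma, adjusted p = 0.000106). The rise was 1.59 above the median of all genes and larger than that of 96.1% of them. It kept its call under median ratio scaling at 1.53 (limma, adjusted p = 0.000279) and without PL sample 2 at 2.08 (limma, adjusted p = 0.00022). With EL and PL fitted alone the fall was no longer called (limma, adjusted p = 0.153). The span of SOD1 is overlapped by SCAF4, and the sources used here do not state whether counting used strand, so reads over the shared stretch are of uncertain origin.

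SOD2, the manganese superoxide dismutase of mitochondria (chromosome 1, 7679352 to 7689564), showed the opposite picture in 2 of the 3 PL samples. Its level was 30.3 units in PL sample 2, 833 in sample 3 and 733 in sample 6. MG samples held 40.6, 70.9 and 59.7 units and LG samples 47.5, 67.0 and 51.9. EL samples held 43.0, 30.6 and 38.7 units and W2 samples 64.3, 72.4 and 44.7. PL sample 2 was thus the lowest of all 15 samples and the other PL samples the highest by far. With all 3 PL samples, the log2 fold change was 2.83 ± 0.91 in PL vs EL (limma, adjusted p = 0.106) and -2.15 ± 0.91 in W2 vs PL (limma, adjusted p = 0.0881), and neither was called. Without PL sample 2, SOD2 was called in both, at 4.38 ± 0.27 in PL vs EL (limma, adjusted p = 6.61e-06) and -3.71 ± 0.27 in W2 vs PL (limma, adjusted p = 2.04e-05), with the spread of the 2 remaining PL samples pooled with that of the other stages. Under median ratio scaling with all samples both passed as well, at 3.16 (limma, adjusted p = 0.0463) and -2.89 (limma, adjusted p = 0.0369). With PL sample 2 left out, SOD2 was also called higher in PL vs MG at 3.80 (limma, adjusted p = 2.05e-05) and in PL vs LG at 3.82 (limma, adjusted p = 2.02e-05). Its test over the 5 stages then passed as well (limma, adjusted p = 5.17e-05).

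Within single samples, the ratio of SOD1 to SOD2 does not depend on the scaling of the sample. It was 8.46 to 16.5 in the 12 samples of MG, LG, EL and W2. In PL it was 3.91 in sample 2, 0.179 in sample 3 and 0.289 in sample 6. Every PL sample therefore had a lower ratio than every sample of the other stages, PL sample 2 included, and in PL samples 3 and 6 the mitochondrial enzyme was the more abundant transcript.

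CAT, catalase (chromosome 2, 26493664 to 26533881), followed SOD1. It stood at 328, 390 and 356 units in MG, 386, 279 and 419 in LG, and 335, 181 and 294 in EL. In PL it was 83.6, 126 and 109 units, below every sample of the other stages, and in W2 it was 434, 451 and 364. The log2 fold change was -1.32 ± 0.23 in PL vs EL (limma, adjusted p = 0.00859) and 1.98 ± 0.23 in W2 vs PL (limma, adjusted p = 0.00019). Under median ratio scaling the values were -0.98 (limma, adjusted p = 0.00756) and 1.24 (limma, adjusted p = 0.000847). The fall into PL was no longer called with the 2 stages fitted alone (limma, adjusted p = 0.202), while in PL vs MG it was -1.76 ± 0.23 (limma, adjusted p = 0.000471) and in PL vs LG -1.76 ± 0.23 (limma, adjusted p = 0.000889).

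GPX1, the ubiquitous selenium-dependent glutathione peroxidase (chromosome 13, 31916269 to 31917337), followed SOD2. Its PL values were 33.7 units in sample 2, 325 in sample 3 and 311 in sample 6. The other stages held 36.3, 99.7 and 79.4 units (MG), 53.5, 24.8 and 58.1 (LG), 49.5, 15.4 and 44.1 (EL), and 77.1, 84.7 and 35.6 (W2). PL sample 2 lay within the range of the other stages, and the other PL samples were above all of it. With all PL samples the log2 fold change was 2.20 ± 0.79 in PL vs EL (limma, adjusted p = 0.144) and -1.29 ± 0.79 in W2 vs PL (limma, adjusted p = 0.231). Without PL sample 2 it was 3.28 ± 0.60 (limma, adjusted p = 0.00703) and -2.36 ± 0.60 (limma, adjusted p = 0.0146), both called. GPX1 was then also called higher in PL vs MG at 2.26 (limma, adjusted p = 0.0229) and in PL vs LG at 2.89 (limma, adjusted p = 0.00995). Its test over the 5 stages then passed as well (limma, adjusted p = 0.02). The ratio of CAT to GPX1 within a sample was 3.91 to 11.8 in the 12 samples outside PL, and 2.48, 0.387 and 0.352 in PL samples 2, 3 and 6, so that here too each PL sample was below all others.

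GPX3, the secreted glutathione peroxidase (chromosome 16, 71980467 to 71989011), had the lowest mean of the 10 genes, at 5.18 units over the 15 samples. MG samples ran from 2.99 to 7.64 units, LG samples from 2.49 to 5.80, EL samples from 2.75 to 4.50, PL samples from 3.19 to 7.84 and W2 samples from 3.59 to 11.6, and all stages overlapped. PRDX1, the cytosolic peroxiredoxin (chromosome 6, 165847390 to 165859918), was far more abundant. Its samples were at 135 to 297 units (MG), 93.3 to 201 (LG), 80.7 to 181 (EL), 135 to 172 (PL) and 139 to 242 (W2). Neither gene was called in any comparison. In W2 vs PL the log2 fold change was 0.29 for GPX3 with a 95% interval from -0.76 to 1.33, and 0.41 for PRDX1 with an interval from -0.40 to 1.22, so both intervals include a difference of 1 log2 unit.

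**Figure D2:**
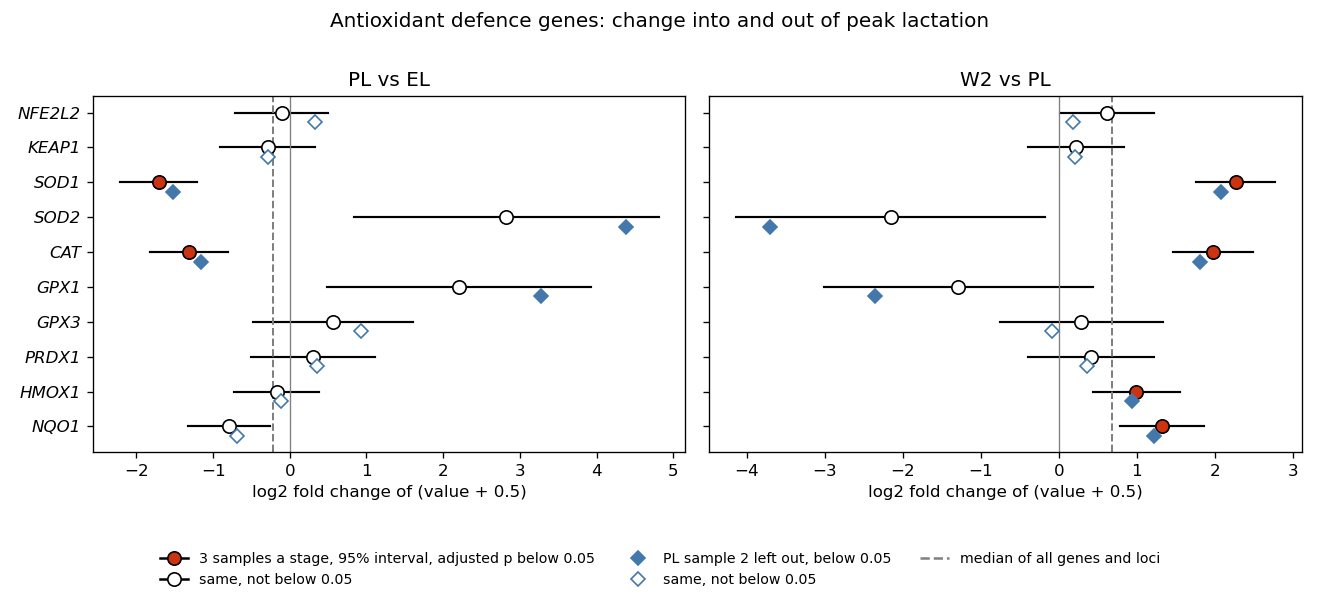
Log2 fold change of each of the 10 genes in PL vs EL and W2 vs PL from the limma fit (circles, with 95% intervals, filled where the adjusted p was below 0.05) and with PL sample 2 left out (diamonds), beside the median of all genes and loci (dashed line, -0.22 and 0.68 with all samples, -0.027 and 0.48 without PL sample 2). SOD1 and CAT are called on both sides of peak lactation with and without that sample, and of these settings SOD2 and GPX1 are called with it left out.

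NFE2L2 (chromosome 15, 82967485 to 83146185) was at 40.9, 40.4 and 36.7 units in MG, 33.7, 38.0 and 35.3 in LG, and 32.9, 32.2 and 29.1 in EL. In PL it was 15.7, 37.6 and 41.5 units and in W2 39.6, 46.3 and 49.7. PL sample 2 was the lowest of all samples and the other PL samples overlapped MG, LG and W2. NFE2L2 was called in no comparison. Its log2 fold change in W2 vs PL was 0.62 ± 0.28 (limma, adjusted p = 0.106), which was 0.06 below the median of all genes. Leaving out PL sample 2 brought its test over the 5 stages to an adjusted p of 0.0395 (limma) and its W2 vs EL change of 0.51 to 0.0152, and leaving out PL sample 6 brought W2 vs PL to 0.87 (limma, adjusted p = 0.0307). The annotated span of NFE2L2 overlaps HNRNPA3 and AGPS, both of which are in the table.

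KEAP1 (chromosome 2, 69280940 to 69290267), the adaptor that presents NRF2 to its ubiquitin ligase, was highest in MG, at 23.1, 26.4 and 20.4 units. It was 19.9, 19.1 and 21.6 units in LG and 16.7, 12.6 and 15.8 in EL. PL samples held 12.0, 14.6 and 10.2 units and W2 samples 14.5, 8.54 and 22.9. The MG and LG samples lay above the EL and PL samples, and W2 spanned nearly the whole range. In PL vs MG the log2 fold change was -0.91 ± 0.28 (limma, adjusted p = 0.0352), 0.34 below the median of all genes. This call was lost with any of the MG samples (1, 3 or 6) or with PL sample 2 or 6 left out (limma, adjusted p 0.0585 to 0.116) and under median ratio scaling (-0.26, limma, adjusted p = 0.611). KEAP1 was called over the 5 stages with W2 sample 6 left out (limma, adjusted p = 0.0354) and in PL vs LG with W2 sample 3 left out (limma, adjusted p = 0.0465).

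HMOX1, the inducible heme oxygenase, lies on an unplaced scaffold of the assembly. In the gestation samples it was at 30.2, 17.6 and 16.8 units (MG) and 16.7, 15.8 and 20.9 (LG). In lactation it was at 16.3, 10.2 and 14.4 units (EL) and 10.9, 12.9 and 11.7 (PL), and after weaning at 22.2, 20.3 and 30.7. The W2 samples were above all PL and EL samples, and PL and EL overlapped. The log2 fold change in W2 vs PL was 0.99 ± 0.26 (limma, adjusted p = 0.0116), 0.32 above the median of all genes. It was not called under quantile normalization (0.30, limma, adjusted p = 0.474) or median ratio scaling (0.27, limma, adjusted p = 0.506). In PL vs MG it was -0.79 ± 0.26 (limma, adjusted p = 0.0407), and without MG sample 1 it was -0.52 (limma, adjusted p = 0.141). That call was also lost when any of MG sample 3, LG sample 1 or 3, EL sample 6, PL sample 2, 3 or 6, or W2 sample 2 was left out (limma, adjusted p 0.0506 to 0.0935). Over the 5 stages HMOX1 narrowly missed the threshold (limma, adjusted p = 0.0545) and passed it without MG sample 1 (limma, adjusted p = 0.043). Without PL sample 2 it was called in W2 vs EL at 0.82 (limma, adjusted p = 0.0481).

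NQO1, a quinone reductase (chromosome 6, 17292962 to 17302593), was low throughout. It stood at 6.84, 8.24 and 6.18 units in MG and at 5.70, 6.18 and 8.32 in LG. EL samples held 6.77, 4.30 and 3.96 units, PL samples 2.19, 3.41 and 2.35, and W2 samples 6.54, 7.65 and 7.78. The PL samples were below all others, and the W2 samples lay within the range of MG and LG. The log2 fold change was 1.33 ± 0.25 in W2 vs PL (limma, adjusted p = 0.00217), -1.28 ± 0.25 in PL vs MG (limma, adjusted p = 0.00359) and -0.79 ± 0.25 in PL vs EL (limma, adjusted p = 0.0957). Under median ratio scaling W2 vs PL remained called at 0.67 (limma, adjusted p = 0.043), and under quantile normalization it was not (0.62, limma, adjusted p = 0.0657). Its test over the 5 stages was not called under either of these scalings (limma, adjusted p = 0.108 and 0.144).

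The order of the levels was the same at the top in 4 stages. In MG, LG, EL and W2 the means fell from SOD1 to CAT to PRDX1, and between these neighbours the samples overlapped only for CAT and PRDX1 in EL. GPX1 and SOD2 came next and overlapped in each of these stages. In PL the means ran from SOD2 (532 ± 437 units) to GPX1 (223 ± 164), SOD1 (160 ± 47.4), PRDX1 (148 ± 21.1) and CAT (106 ± 21.2), and the only neighbours among these whose samples did not overlap were PRDX1 and CAT. NFE2L2 held the sixth place in every stage, and KEAP1, HMOX1, NQO1 and GPX3 were below it.

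Of the 23 transcripts, 2 were called in the limma test over the 5 stages, when 2.6% of all transcripts were. These were the sole SOD1 transcript, NM_001190422.1 (limma, adjusted p = 0.00122), and NM_214301.2 of CAT (limma, adjusted p = 0.00321), which made up 97.8% of the CAT sum. The other CAT transcript, XM_021081498.1, was at 0 to 23.6 units. The NQO1 transcript missed the threshold at this level (limma, adjusted p = 0.0768). XM_021096742.1 gave 93.7% of the PRDX1 sum, while XM_021096743.1 was at 93.7 units in 1 MG sample and at 0 in both others. SOD1, SOD2, GPX1, GPX3, HMOX1 and NQO1 had a single transcript each.

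NFE2L2 and KEAP1 were split among many transcripts whose shares varied within stages. Of 7 NFE2L2 transcripts, XM_003483682.4 was the largest, at 36.8% of the summed level over the 15 samples. It ranged from 7.47 to 25.0 units within MG and from 5.85 to 23.9 within PL, and in W2 it lay between 9.86 and 10.7 units. XM_005671981.3 had a mean of 8.96 ± 2.19 units in W2 and 2.03 ± 3.23 in LG, and was not called (limma, adjusted p = 0.53). In PL sample 2 NFE2L2 was assigned to fewer transcripts than in any other sample, and only XM_003133500.6, XM_003483682.4 and XM_005671981.3 were above 0 there.

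Of the 5 KEAP1 transcripts, NM_001114671.1 and XM_005654811.3 gave 43.1% and 39.4% of the sum. The former averaged 14.2 ± 4.86 units in LG and 2.19 ± 2.03 in PL, the latter 8.41 ± 4.64 in PL and 2.01 ± 0.31 in W2. XM_021076654.1 was at 0 in 10 of 15 samples and at 13.5 units in a single W2 sample. No KEAP1 transcript was called over the 5 stages (smallest limma adjusted p = 0.25, for XM_005654811.3), and the assignment of reads to such overlapping transcripts was an estimate.

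**Figure D3:**
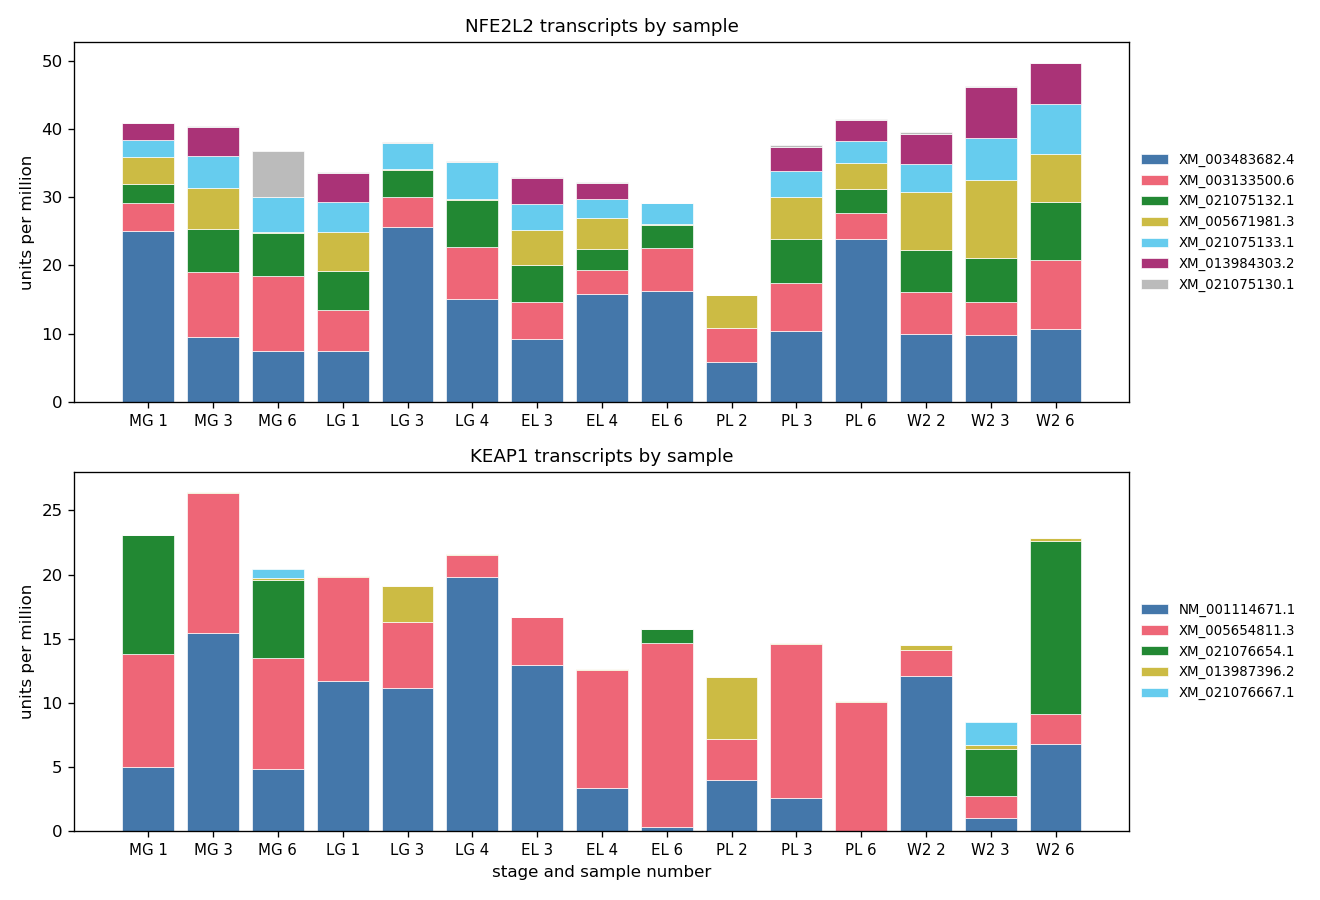
Level of each NFE2L2 transcript (above) and KEAP1 transcript (below) in units in the 15 counted samples, stacked to the gene sum. The mixture differed between samples of the same stage, as with XM_003483682.4 of NFE2L2, at 7.47 to 25.0 units within MG.

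Across the 15 samples the members fell into groups of like pattern, given here as a description over samples that share their stages. On log2 values SOD1 and CAT had a Pearson correlation of 0.97, CAT and NQO1 of 0.93, and SOD1 and NQO1 of 0.88. SOD2 and GPX1 had 0.89, and SOD1 and SOD2 had the lowest value of all pairs, -0.49. The single gene most like each member other than GPX3 was sought among the 5466 or 5467 other genes with a reference symbol and a mean of at least 10 units. For SOD1 it was HSP90AB1, a cytosolic chaperone (r = 0.98), which averaged 342 ± 93.5 units in PL and 2051 ± 250 in W2. For CAT it was NDUFS8, a subunit of respiratory complex I (r = 0.99), at 39.1 ± 7.48 units in PL and 94.9 ± 3.78 in W2. NQO1 was closest to GUCY1B3, a subunit of the nitric oxide receptor guanylate cyclase (r = 0.97).

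SOD2 was closest to LCN2, an iron-sequestering antibacterial protein (r = 0.98). LCN2 was at 9.43, 1122 and 1647 units in PL samples 2, 3 and 6 and between 12.9 and 25.2 units in all 12 samples of the other stages, so it split the PL samples as SOD2 did. GPX1 was closest to MT1D, a metallothionein (r = 0.94), at 0.646, 32.3 and 120 units in the same PL samples and 0 to 9.11 elsewhere. NFE2L2 was closest to PEX13, a peroxisomal import factor (r = 0.98, Spearman correlation 0.88). PEX13 was at 5.82 units in PL sample 2, also the lowest sample for NFE2L2, and at 10.0 to 15.3 in all others. KEAP1 was closest to FBN1, a microfibril protein (r = 0.88), HMOX1 to FAM49B (r = 0.90) and PRDX1 to AKR1A1, an aldehyde reductase (r = 0.88).

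Beyond the 10 genes, 54 of 58 listed genes of the surrounding systems were in the table. Over the 5 stages 15 of the 54 were called, beside 18.3% of all genes. In W2 vs PL 24 were higher and 2 lower (32.8% of all genes called), in PL vs MG 2 were higher and 23 lower (25.2%), in PL vs LG 7 were lower (14.7%), and in PL vs EL 3 were lower (4.62%). In W2 vs EL 1 was higher (GSTO1) and 1 lower (XDH), beside 0.554% of all genes, and the remaining 5 comparisons held no call. Without PL sample 2, 20 of the 54 were called over the 5 stages, where the share of all genes called was not computed. In that setting 16 were higher and 1 lower in W2 vs EL (17% of all genes called). In EL vs MG 1 was higher and 5 lower (1.78%), and in PL vs EL 4 were higher and 3 lower (7.53%). In PL vs LG 4 were then higher and 7 lower (12.4%), in PL vs MG 5 higher and 16 lower (20.5%), and in W2 vs PL 20 higher and 5 lower (26.8%). The median log2 fold change of the 54 in W2 vs PL was 0.63, beside 0.68 for all genes, and in PL vs MG it was -0.62 beside -0.57. After median ratio scaling 6 of the 54 were higher and 6 lower in W2 vs PL (13.1% of all genes called). In PL vs MG 7 were then higher and 6 lower (11%), so the direction of the list as a whole rested on the scaling.

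Of 5 other peroxiredoxins, 3 rose in W2 vs PL (32.8% of all genes called) and 2 of these also fell in PL vs EL (4.62%). PRDX3, the mitochondrial peroxiredoxin, fell from 367 ± 57.6 units in EL to 82.0 ± 2.38 in PL, a log2 fold change of -2.14 ± 0.17 (limma, adjusted p = 7.4e-05), and stood at 367 ± 60.4 in W2 (2.14 ± 0.17, limma, adjusted p = 3.52e-05). PRDX6, which reduces phospholipid peroxides, fell from 64.6 ± 16.2 to 28.7 ± 8.98 units and stood at 127 ± 5.45 in W2 (2.18 ± 0.23, limma, adjusted p = 0.000118). Under median ratio scaling W2 vs PL was 1.40 for PRDX3 (limma, adjusted p = 0.000528) and 1.44 for PRDX6 (limma, adjusted p = 6.25e-05). PRDX2 rose in W2 vs PL by 1.08 ± 0.25 as deposited (limma, adjusted p = 0.00608), and its 0.34 after that scaling was not called (limma, adjusted p = 0.116). PRDX4 and PRDX5 were not called in W2 vs PL, at 0.14 and 0.13.

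In the glutathione and thioredoxin systems, 4 of 7 genes of glutathione synthesis and recycling, 3 of 7 glutathione transferases and 3 of 6 thioredoxin genes rose in W2 vs PL, when 32.8% of all genes were called. None of these genes was called lower, though the summed thioredoxin list averaged 1129 ± 766 units in PL and 1097 ± 138 in W2. The summed glutathione transferases averaged 1304 ± 265 units in PL and 1291 ± 275 in W2. The sum of glutathione synthesis and recycling averaged 61.9 ± 7.97 and 106 ± 10.1 units. GSR, which regenerates reduced glutathione, went from 3.21 ± 1.54 units in PL to 11.5 ± 2.23 in W2 (1.78 ± 0.33, limma, adjusted p = 0.0023). GSTO1, an omega class transferase, went from 14.5 ± 4.98 to 67.0 ± 10.8 units (2.22 ± 0.31, limma, adjusted p = 0.000442), and both kept their call under median ratio scaling, at 1.12 and 1.49. MGST3 (1.29), GSTA4 (2.88), TXN (0.97) and GPX4 (0.68), the peroxidase of membrane lipids, were called as deposited and not after that scaling, where GPX4 stood at -0.06.

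Among the other lists, RBX1, the RING subunit of the ligase that ubiquitinates NRF2, rose by 1.32 ± 0.19 in W2 vs PL (limma, adjusted p = 0.000473) and by 0.58 after median ratio scaling (limma, adjusted p = 0.00227), while its scaffold CUL3 rose by 0.94 ± 0.22 (limma, adjusted p = 0.00666) and stood at 0.21 after scaling, not called. BLVRA, which reduces the biliverdin that heme oxygenase makes, rose by 1.29 ± 0.21 (limma, adjusted p = 0.00095) and by 0.58 after scaling (limma, adjusted p = 0.0285). FTL, the ferritin light chain, rose by 0.96 ± 0.18 (limma, adjusted p = 0.00255) and PGD, an enzyme of NADPH supply, by 0.59 ± 0.12 (limma, adjusted p = 0.00396). After scaling neither was called, and PGD stood at -0.15.

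As deposited and with all samples, both pathway genes called lower in W2 vs PL were among the 5 oxidant-producing enzymes. The list did not fall as a whole. Its median log2 fold change was 0.83, beside 0.68 for all genes, and CYBA and NCF1 had their highest stage mean in W2. Of the 54 genes, 5 were lower in W2 vs PL without PL sample 2 (26.8% of all genes called) and 6 after median ratio scaling (13.1%). XDH, xanthine dehydrogenase, which is also a structural protein of the milk fat globule, averaged 234 ± 176 units (MG), 488 ± 238 (LG), 1290 ± 478 (EL), 1013 ± 311 (PL) and 105 ± 37.0 (W2). It fell by 3.29 on the log2 scale in W2 vs PL (limma, adjusted p = 0.00078) and was 2.31 ± 0.51 higher in PL vs MG (limma, adjusted p = 0.00724), with the same calls after median ratio scaling. The other gene called lower as deposited was DUOX1, named after its values were seen, at -0.74 ± 0.25 in W2 vs PL (limma, adjusted p = 0.0401).

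**Figure D4:**
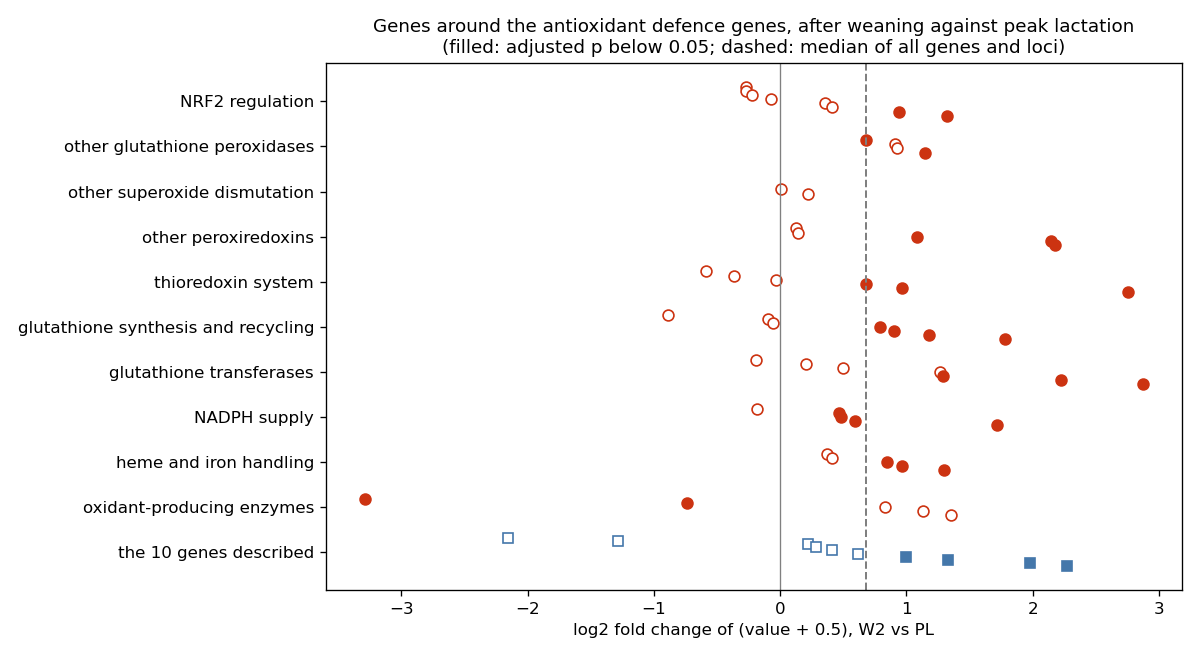
Log2 fold change in W2 vs PL of the 54 pathway genes by list (circles) and of the 10 genes described (squares), filled where the adjusted p was below 0.05, with the median of all genes and loci as a dashed line at 0.68. Most called genes lie on the side of higher levels in W2, and XDH and DUOX1 among the oxidant-producing enzymes lie on the other side.

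Markers of other cell types moved with the same stages, and their counts in W2 vs PL stand beside 32.8% of all genes called. Of 4 macrophage markers in the table, 4 were higher in W2 vs PL, and their summed level was 57.0 to 82.2 units in PL, 94.2 to 150 in EL and 163 to 199 in W2. Of 4 neutrophil markers, 3 were higher in PL vs EL (4.62% of all genes called) and lower in W2 vs PL. Their sum was 9.21, 17.0 and 47.0 units in PL samples 2, 3 and 6, and 0.458 to 3.56 in the other 12 samples. S100A8 was at 0 in all samples of LG, EL and W2, S100A12 in all of LG and S100A9 in all of EL. The sum was carried by these S100 genes in PL. CSF3R, the fourth marker, was at 0.116, 1.53 and 0.673 units in PL samples 2, 3 and 6 and at 0.458 to 1.66 elsewhere, so PL sample 2 was the lowest of all 15 samples in this gene. Of 5 fibroblast markers, 4 were higher in W2 vs PL, with sums of 429 to 990 units in PL and 1192 to 2309 in W2. Adipocyte markers summed to 253 to 388 units in PL and 444 to 732 in the other stages, and 1 of 3 was higher and 1 lower in W2 vs PL. Endothelial markers summed to 68.9 to 101 units in PL and 112 to 128 in W2 (2 of 3 higher), and luminal markers to 770 to 1569 and 1326 to 1907 (1 of 5 higher). Myoepithelial and erythroid markers, 3 of each, held no call in W2 vs PL, with PL sums of 759 to 1918 and 46.9 to 93.6 units and W2 sums of 1388 to 1639 and 38.5 to 182. All 6 milk protein genes fell in W2 vs PL. The part of these cell types in the changes of the antioxidant genes was not tested. With the milk protein genes left out and the rest rescaled to a common total, an alternative chosen after the data were seen, SOD1 rose by 2.00 in W2 vs PL (limma, adjusted p = 9.24e-05), CAT by 1.71 (limma, adjusted p = 0.000226), NQO1 by 1.10 (limma, adjusted p = 0.00518) and HMOX1 by 0.74 (limma, adjusted p = 0.0469).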

How the data were processed

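Per the labels, the authors made TruSeq RNA v2 libraries. Whether strand was kept is not stated. The reads passed FastQC and Trimmomatic, HISAT2 placed them on Sscrofa11.1, and StringTie assembled and quantified the transcripts. A transcript had to reach an FPKM of 0.5 in a stage to be kept. RUVs is named, but whether it shaped the table is not stated. The deposited values, called FPKM, were treated as TPM because of their totals (997480 to 1002643 per sample). The table gives no read counts, so depth per value is unknown and precision was taken from the spread between samples.

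Identifiers were mapped to genes through the RefSeq annotation of Sscrofa11.1 and summed per gene. No filter on low values was applied. log2(value + 0.5) was tested with limma 3.58.1 (R 4.3.3; trended variance, Benjamini-Hochberg) over 15 samples, in an F test over 5 stages and 10 comparisons. On simulated data with 200 changed genes 103 were recovered and 8 unchanged genes called. The planted changes were rises of several sizes in PL. Unlike the data, the simulation held no shift of all genes in PL and no deviant sample. Alternatives were pseudocounts, a filter, 2 scalings, a replicate block, all 6 samples, the leading transcript, a fold threshold, 2 stages alone and each sample left out.

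The 10 genes, the pathway and marker lists and the rule for named genes (all members, pathway genes called over the 5 stages, the most alike gene, which is not reported here for GPX3) were chosen with earlier results of these data known. Same-numbered samples did not deviate together, so no pairing was used. No batch is named in the records.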

Additional observations from a re-analysis of the deposited data

How the results depend on the processing

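Under other pseudocounts, a minimum mean of 1 unit, quantile normalization, median ratio scaling, no variance trend, the leading transcript of each gene and omission of the milk protein genes, the counts over the 5 stages, in the 4 consecutive comparisons and in the other 6 together stayed within 1.5 times their main values. Within those 6, PL vs MG held 3 members instead of 5 with the milk protein genes left out, when 18.3% of all genes were called. Like counts did not mean like genes. Under median ratio scaling W2 vs PL held 4 members with 3 higher (13.1% of all genes called), as HMOX1 lost its call and SOD2 was called lower. In that scaling PL vs EL held 3 members with SOD2 higher (5.25% of all genes called), and PL vs MG 4 with 1 higher (11%). NQO1 lost its call over the 5 stages under median ratio scaling and quantile normalization. With all 6 samples per stage, 10 members were called over the 5 stages, as were 20 transcripts (2 in the main setting). The shares of all genes and of all transcripts called over the 5 stages were not computed for that setting. In LG vs MG 1 member was called (14.2% of all genes), in EL vs LG 5 (21.9%), in PL vs EL 5 (38.9%) and in W2 vs PL 8 (63.3%). The other 6 comparisons together held 37 member calls (8 in the main setting), with 8.67% (W2 vs MG) to 58.1% (PL vs MG) of all genes called in each. These tests count near-copies of stage means as samples. When calls also needed a log2 change of 2 or more in size, the counts were 1 over the 5 stages, 0 in PL vs EL, 1 in W2 vs PL and 2 in the other 6. With PL and EL fitted alone 0 members were called. The samples share only a number, and with the replicate number as a block 1 member was called in PL vs EL, 5 in the other 6 comparisons and 1 transcript. For the fold threshold, the 2 stages fitted alone and the replicate block, the share of all genes called was not computed. Leaving out each sample in turn gave 3 to 6 members over the 5 stages and 2 to 4 in PL vs EL, the highest in both without PL sample 2, 4 to 6 in W2 vs PL, 0 in LG vs MG and in EL vs LG, 6 to 12 in the other 6 comparisons and 2 to 3 transcripts. Without PL sample 2, 7.53% of all genes were called in PL vs EL and 26.8% in W2 vs PL. Such shares were not computed for the other samples left out, nor for the test over the 5 stages with any sample left out.

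Signs changed only for changes that were not called in either setting. NFE2L2 in PL vs EL turned from -0.11 to 0.16 under quantile normalization, 0.22 under median ratio scaling, 0.16 with the replicate block and 0.022 without the milk protein genes, with -0.36 to 0.33 when single samples were left out. NFE2L2 in W2 vs PL turned to -0.059 (quantile), -0.11 (median ratio) and -0.16 (leading transcript). KEAP1 turned to 0.037 in PL vs EL (median ratio) and in W2 vs PL to -0.48 (quantile), -0.50 (median ratio) and -0.042 (milk protein genes left out), with -0.12 to 0.57 when single samples were left out. In W2 vs PL GPX3 turned to -0.43 (quantile) and -0.39 (median ratio), with -0.081 to 0.72 when single samples were left out, and PRDX1 to -0.18 and -0.33. HMOX1 in PL vs EL turned to 0.064 (quantile) and 0.15 (median ratio). For LG vs MG and EL vs LG, 26 and 13 of 260 alternative values each changed sign, none of them called. The causes were not tested. The absence of read counts leaves the precision of low values, such as NQO1 and GPX3, unknown.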
